A study of Mus musculus with 9 samples.

Results

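The miRNAs described here are the miR-200 family (miR-200a, miR-200b, miR-200c, miR-141 and miR-429) together with miR-205 and miR-375, a set of epithelial and endocrine miRNAs measured by small-RNA sequencing of mouse liver. Members were chosen by name: 9 mature miRNAs, each of which had a row among the 946 rows of the count table. Of these, 8 had enough reads for testing, beside 360 tested miRNAs in all, and miR-200b-5p did not. The study took livers from wild-type C57 BL6 mice, 8 weeks old and about 20 g in weight. Control mice received saline, APAP mice received 500 mg/kg acetaminophen (APAP, which injures the liver at high dose) by intraperitoneal injection, and dmPGE2+APAP mice were given dmPGE2 (a stabilised form of prostaglandin E2) at 300 µg/kg, also intraperitoneally, 1 h ahead of the same APAP dose. Tissue was collected 6 h after APAP, with 3 libraries per group. There was no group with dmPGE2 alone and the labels name no vehicle for it, so dmPGE2 was measured only on top of APAP. Nothing in the labels says that libraries came from separate animals, so the spread behind each p-value may be technical.

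miRNAs are short RNAs that bind messenger RNAs, mainly through the bases near their 5′ end called the seed, and lower their output. The miR-200 family is known for holding cells in an epithelial state by repressing the transcription factors Zeb1 and Zeb2, which switch off E-cadherin. In liver it is best known from bile duct cells (cholangiocytes), while hepatocytes make up most of the tissue. miR-205 shares the Zeb targets and is a miRNA of skin and other stratified epithelia, and miR-375 is abundant in pancreatic islets and other endocrine cells.

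The family comes from a pair of clusters, and sequence divides it another way. Mir200b, Mir200a and Mir429 lie within 1846 bases of chromosome 4 (156053905 to 156055750, minus strand), and Mir200c and Mir141 within 477 bases of chromosome 6 (124717914 to 124718390, minus strand). Mir205 lies on chromosome 1 at 193507463 to 193507530 and Mir375 on chromosome 1 at 74900658 to 74900721, both on the minus strand. Coordinates are those of the RefSeq hairpins in GRCm38.p6, the assembly also called mm10. The mature sequences below, from RefSeq, are shown because the seed, in capitals (bases 2 to 8 from the 5′ end), sorts the 3p arms into 2 groups that cut across the clusters.
mmu-miR-200b-3p: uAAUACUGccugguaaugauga
mmu-miR-200c-3p: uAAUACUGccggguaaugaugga
mmu-miR-429-3p: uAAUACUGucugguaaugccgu
mmu-miR-200a-3p: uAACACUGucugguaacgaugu
mmu-miR-141-3p: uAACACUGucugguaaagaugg
mmu-miR-200a-5p: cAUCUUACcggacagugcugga
mmu-miR-200b-5p: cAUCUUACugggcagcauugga
mmu-miR-205-5p: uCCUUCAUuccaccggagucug

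The seed AAUACUG was shared by miR-200b-3p, miR-200c-3p and miR-429-3p, and the seed AACACUG by miR-200a-3p and miR-141-3p. The single change between these seeds was C4U, read from miR-200a-3p to miR-200b-3p and counted from 1 at the 5′ end. Within a seed group the members of the different clusters were nearly identical. miR-200b-3p and miR-200c-3p differed at 2 of 22 aligned positions (U11G and A22G), and miR-200a-3p and miR-141-3p also at 2 (C17A and U22G). How reads matching several of these sequences were assigned is not given in the sources used here, so an unknown share of reads may be split between such near copies. The reads of miR-141-3p were only 0.572% to 2.82% of those of miR-200a-3p in a library, so even a small split would weigh on miR-141-3p. No other row of the table held nearly the same counts as any member, since 0 rows stayed within 5% or 2 reads of one across the libraries.

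The libraries held between 1038799 and 10483460 reads. The shallowest was dmPGE2+APAP replicate 2, where 1 read was worth 0.852 CPM (a read count scaled to a common library size by TMM) and 3 reads were worth 2.56 CPM, so low miRNAs carry wide counting error there. That library was also the highest of the 9 for 93 of the 360 tested miRNAs (25.8%), and several results below rest on it. Hepatocyte miRNAs were present throughout, with 5 of 5 markers (miR-122-5p, miR-192-5p, miR-194-5p, miR-148a-3p and miR-802-5p) detected and a summed level of 328500 to 524800 CPM per library. In bulk tissue, fewer cells of a type and less RNA per cell cannot be told apart.

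Together the 9 members made up 0.0426% to 0.125% of the reads of a library. Most of that came from miR-200a-3p, with a mean of 309.8 CPM over all libraries, and miR-200b-3p, with 277 CPM, at ranks 59 and 66 of the 946 rows. Their ranges over the libraries overlapped (224 to 423 and 197 to 419 CPM), while within a library miR-200a-3p had more reads than miR-200b-3p in 8 of 9, all but Control replicate 3. The next in mean level were miR-200c-3p at 34.4 CPM, miR-429-3p at 24.9, miR-200a-5p at 12.0, miR-205-5p at 9.66, miR-141-3p at 3.87, miR-375-3p at 2.01 and miR-200b-5p at 0.729. The printed mature sequences are 22 or 23 bases long, so these levels need no length term. The places of miR-200c-3p and miR-205-5p rest on dmPGE2+APAP replicate 2, and over the other 8 libraries their medians were 20.1 and 2.45 CPM.

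The most abundant member, miR-200a-3p, had 224, 261 and 409 CPM in Control replicates 1, 2 and 3, 266, 290.2 and 339.8 CPM in APAP, and 237, 423 and 339 CPM in dmPGE2+APAP. The groups overlapped, and the spread inside Control and inside dmPGE2+APAP was wider than any distance between group means (298 ± 97.7, 299 ± 37.7 and 333 ± 93.1 CPM, SD, n = 3). Its cluster neighbour miR-200b-3p, which carries the other seed, had 212, 246 and 419 CPM in Control, 221, 264.5 and 271 CPM in APAP, and 197, 389 and 274 CPM in dmPGE2+APAP. Control replicate 3 and dmPGE2+APAP replicate 2 were the high libraries for both miRNAs. Counting error was small against these differences, with a 95% counting interval of 407 to 431.5 CPM for miR-200b-3p in Control replicate 3 and 202 to 224 CPM in Control replicate 1. Such intervals cover counting error only, because PCR copies are not independent molecules.

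miR-429-3p, the third product of the chromosome 4 cluster, was also highest in those 2 libraries, at a lower level. It had 19.7, 22.3 and 30.6 CPM in Control, 20.4, 21.8 and 27.7 CPM in APAP, and 21.8, 36.6 and 22.9 CPM in dmPGE2+APAP. Here the counting interval of dmPGE2+APAP replicate 2, 26.5 to 49.4 CPM from 43 reads, overlapped that of Control replicate 3, 27.4 to 34.1 CPM.

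The 5p arms of this cluster, the partner strands that are usually discarded, were scarce. miR-200a-5p had 12.9, 6.93 and 19.4 CPM in Control, 5.18, 9.04 and 9.57 CPM in APAP, and 7.35, 26.4 and 11.2 CPM in dmPGE2+APAP. It was again highest in dmPGE2+APAP replicate 2 and Control replicate 3. The 5p arm made up 2.58% to 5.45% of the reads of both miR-200a arms in Control, 1.91% to 3.02% in APAP and 3.01% to 5.88% in dmPGE2+APAP, with overlap between the groups. For miR-200b the 5p arm was rarer, at 0.143% to 0.413% of the reads of both arms. The Control libraries held 27 reads of miR-200b-5p, 18 of them in replicate 3, the APAP libraries 9 and the dmPGE2+APAP libraries 8, too few for the test.

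Summed over its 5 members, the chromosome 4 cluster had 470.1, 537 and 879.7 CPM in Control, 513, 586 and 649 CPM in APAP and 463, 876 and 648 CPM in dmPGE2+APAP. Group means were 629 ± 219.8, 583 ± 68.1 and 662 ± 207 CPM (SD, n = 3). A single library in Control and a single library in dmPGE2+APAP thus reached a level that no APAP library had, and the other libraries of the 3 groups lay between 463 and 649 CPM.

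**Figure D1:**
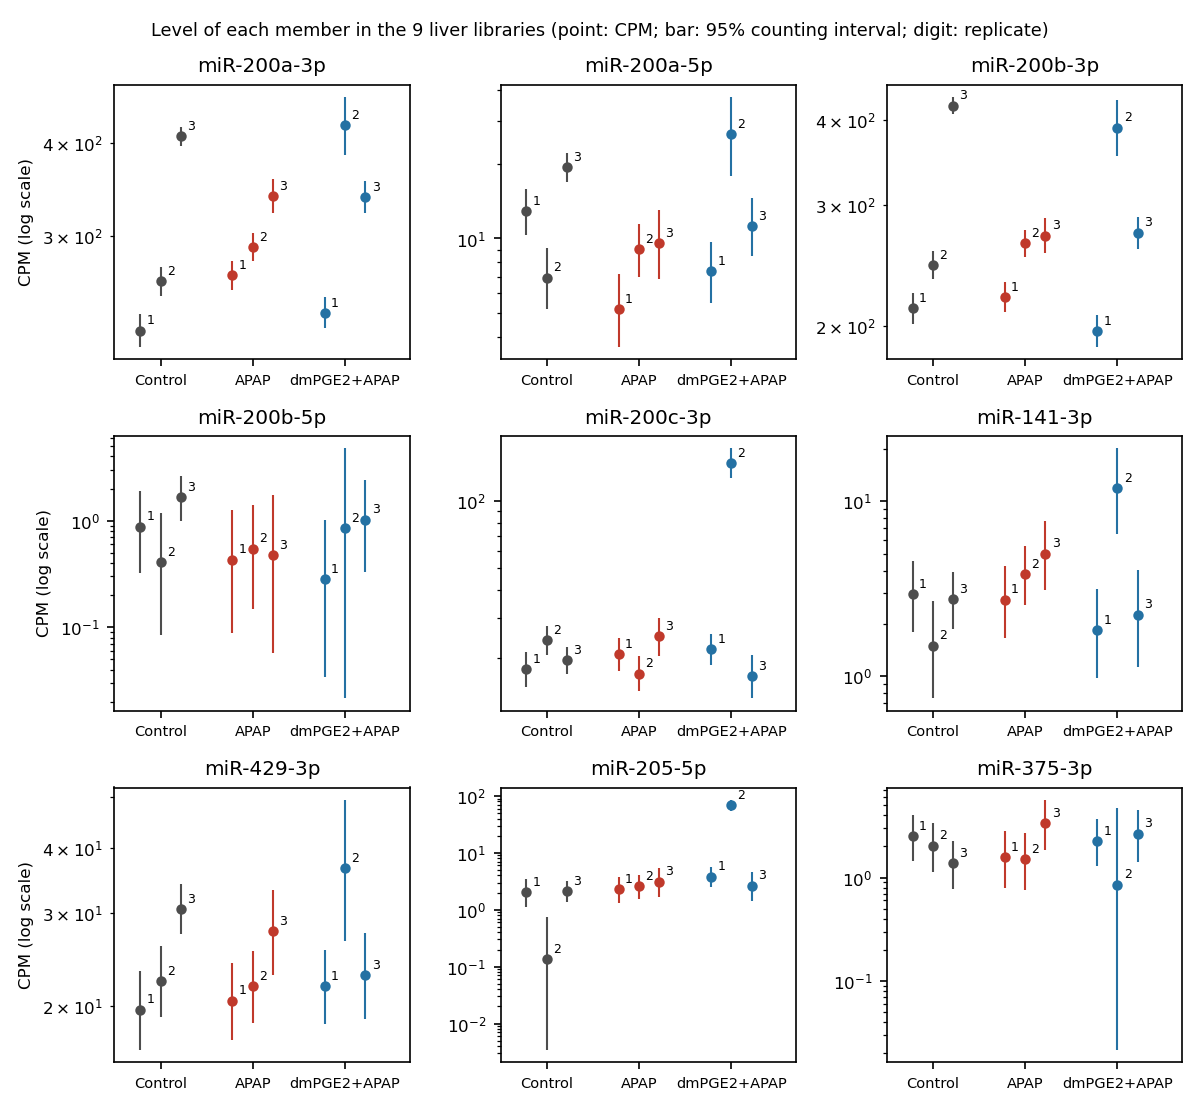
Level of each of the 9 members in CPM (log axis) for the 3 libraries of Control, APAP and dmPGE2+APAP; points are libraries, digits are replicate numbers and bars are 95% counting intervals. miR-200c-3p, miR-141-3p and miR-205-5p stand high in dmPGE2+APAP replicate 2 only, while miR-200a-3p, miR-200a-5p, miR-200b-3p and miR-429-3p are high in both Control replicate 3 and dmPGE2+APAP replicate 2. For miR-141-3p that high point rests on 14 reads, and its interval overlaps that of APAP replicate 3.

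The chromosome 6 cluster did not share the high level in Control replicate 3. miR-200c-3p had 17.8, 23.9 and 19.4 CPM in Control and 20.7, 17.0 and 24.9 CPM in APAP. In dmPGE2+APAP it had 21.8 CPM in replicate 1, 147 CPM in replicate 2 and 16.6 CPM in replicate 3. The 147 CPM rested on 173 reads, with a counting interval of 126 to 171 CPM, and was 5.93-fold the highest of the other 8 libraries (24.9 CPM). miR-141-3p, from the same cluster, had 2.93, 1.49 (11 reads) and 2.76 CPM in Control, 2.74, 3.84 and 5.02 CPM in APAP, and 1.84, 11.9 and 2.25 CPM in dmPGE2+APAP. Its value in replicate 2 came from 14 reads, and the interval of 6.52 to 20.0 CPM overlapped that of APAP replicate 3, 3.11 to 7.68 CPM.

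Summed, the chromosome 6 cluster held 20.7, 25.4 and 22.2 CPM in Control, 23.5, 20.8 and 29.9 CPM in APAP, and 23.6, 159 and 18.8 CPM in dmPGE2+APAP. Its share of the reads of the 5 family 3p arms, which needs no scaling between libraries, was 2.52% to 4.93% in the other 8 libraries and 15.8% in dmPGE2+APAP replicate 2 (exact 95% binomial interval 13.8% to 18.0%). The clusters therefore stood in another proportion in that library, although both were high there.

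**Figure D2:**
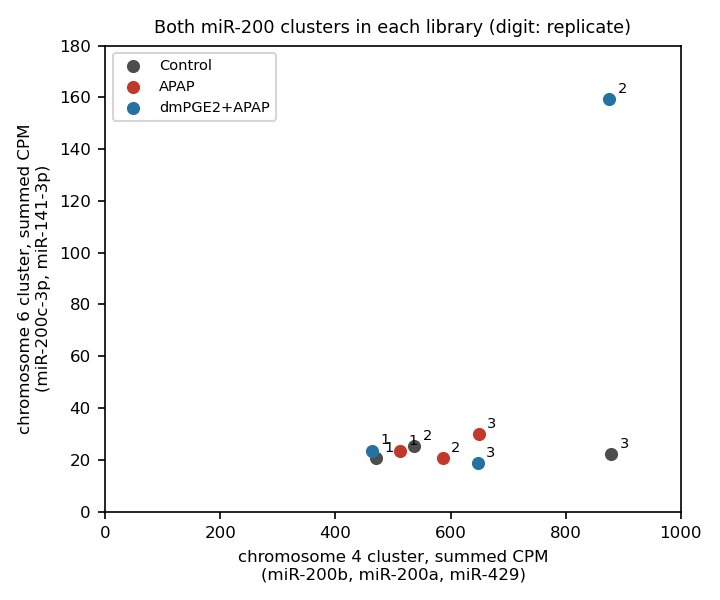
Summed CPM of the chromosome 4 cluster (horizontal axis) against the summed CPM of the chromosome 6 cluster (vertical axis), one point per library, coloured by group and marked with the replicate number. Control replicate 3 lies far right at 879.7 and 22.2 CPM, dmPGE2+APAP replicate 2 lies far right and high at 876 and 159 CPM, and the other 7 lie together.

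miR-205-5p, the miRNA of stratified epithelia, was scarce, at no more than 27 reads in a library, except in 1 library. It had 2.05, 0.136 and 2.12 CPM in Control, 2.30, 2.60 and 3.11 CPM in APAP, and 3.82, 68.2 and 2.66 CPM in dmPGE2+APAP. Replicate 2 of dmPGE2+APAP held 80 of the 206 miR-205-5p reads in the table, although it was the shallowest library, and its interval of 54.1 to 84.9 CPM lay above all others. The level was 17.9-fold the highest and 27.8-fold the median of the other 8 libraries. By that ratio to the median, miR-205-5p ranked 1, miR-200c-3p ranked 3 and miR-141-3p ranked 6 of the 360 tested miRNAs in this library, and 15 of the 360 were at 3-fold or more. That several members were high in this library was known before these ranks were taken, so the ranks are description and no test. Control replicate 2 was low because it held 1 read, against 14 and 23 in the other Control libraries.

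Markers of other tissues were read in the same library. The skin and squamous list has 2 members, and the summed level of 1763 CPM in dmPGE2+APAP replicate 2 came mostly from miR-203-3p, at 1695 CPM against 1331 to 1784 CPM in the other 8 libraries. Of the neuronal list, miR-9-5p stood at 29.0 CPM there against 3.81 to 8.85 CPM elsewhere, while miR-124-3p was at 0 reads. Both exocrine pancreas markers with a row (miR-216b-5p and miR-217-5p, of 4 on the list) were at 0 reads, which allows up to 2.56 CPM each by the limit of 3 reads for a count of 0 and 3.14 CPM by the upper end of the exact 95% interval, and the islet miRNA miR-375-3p held 1 read. The summed intestine list (miR-215-5p and miR-31-5p) was 71.6 CPM, inside the 55.0 to 76.0 CPM of the APAP libraries. The myeloid sum (miR-223-3p and miR-142a-3p) was the lowest of the 9 libraries there, at 11.1 CPM, and the endothelial sum (both arms of miR-126a) the highest, at 10170 CPM beside 10080 CPM in dmPGE2+APAP replicate 3. The part of these other miRNAs, and of low depth, in the high miR-205-5p and miR-200c-3p levels was not tested.

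miR-375-3p (mmu-miR-375-3p in the table) was lowest, not highest, in dmPGE2+APAP replicate 2. It had 2.49, 2.04 and 1.38 CPM in Control, 1.58, 1.51 and 3.35 CPM in APAP, and 2.26, 0.852 and 2.66 CPM in dmPGE2+APAP. No library held more than 17 of its reads, and the counting intervals of all 9 libraries overlapped, from 0.0216 to 4.75 CPM in the shallowest to 1.83 to 5.62 CPM in APAP replicate 3. The order of its levels is thus within counting error.

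The first comparison asked how APAP altered these miRNAs. With edgeR 0 of the 8 tested members were called (adjusted p under 0.05), where 0.833% of all 360 tested miRNAs were, and 0 members had an unadjusted p under 0.05, beside 9.72% of all tested miRNAs. DESeq2 and limma-voom also called 0 members, although DESeq2 gave no p for miR-205-5p and no adjusted p for miR-375-3p. Log2 changes were 0.00 (SE 0.26) for miR-200a-3p, -0.21 (SE 0.28) for miR-200b-3p and -0.06 (SE 0.27) for miR-429-3p. Without Control replicate 3, the high Control library, they were 0.32 (SE 0.24), 0.16 (SE 0.26) and 0.17 (SE 0.27), so the signs of the latter 2 rest on that library. With all libraries, the approximate 95% intervals were -0.63 to 0.63, -0.90 to 0.47 and -0.72 to 0.60, so changes inside those bounds could not be told from 0 for these arms.

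The widest values belonged to scarcer members. miR-200a-5p stood at -0.74 (SE 0.45, adjusted p 0.566 with edgeR), and without Control replicate 3 at -0.31. The fitted value for miR-141-3p was 0.65 (SE 0.55), and for miR-205-5p it was 0.84 (SE 1.43). For miR-205-5p the 3 APAP libraries lay above the 3 Control libraries, 1 of 8 members with such a separation, where 8.61% of all tested miRNAs lay higher without overlap. The nearest libraries were within counting error, with intervals of 1.32 to 3.74 CPM (16 reads, APAP replicate 1) and 1.34 to 3.18 CPM (23 reads, Control replicate 3). No member lay lower without overlap, beside 8.06% of all tested miRNAs. Without Control replicate 2 the log2 value of miR-205-5p was 0.34. miR-200c-3p and miR-375-3p had 0.03 (SE 0.77) and 0.08 (SE 0.48). Of the 8 members 5 had a value above 0, beside 44.7% of all tested miRNAs, and the median was 0.02, beside -0.05 over all tested miRNAs. Without Control replicate 3, 6 lay above 0 and the median was 0.17. Scaling to library totals moved that overall median to 0.20.

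The second comparison asked what dmPGE2 added to APAP. Again edgeR and limma-voom called 0 of 8 members, beside 0.278% of all tested miRNAs with edgeR. DESeq2 also called 0, although it gave no p for miR-205-5p. With edgeR 0 members had an unadjusted p under 0.05, beside 6.39%. Also 0 members lay higher and 0 lower without overlap, beside 5.83% and 8.06% of all tested miRNAs. The fitted log2 changes of miR-205-5p and miR-200c-3p were 2.98 (SE 1.35, adjusted p 0.703) and 1.48 (SE 0.79, adjusted p 0.8195). Both came from dmPGE2+APAP replicate 2. Without it, the log2 values were 0.35 (SE 0.60) for miR-205-5p and -0.07 (SE 0.29) for miR-200c-3p. For miR-200a-5p the value was 0.78 (SE 0.47) with that library and 0.26 (SE 0.43) without it.

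The abundant arms differed little between the APAP groups, at 0.15 (SE 0.26) for miR-200a-3p, 0.18 (SE 0.28) for miR-200b-3p and 0.18 (SE 0.28) for miR-429-3p. Leaving out dmPGE2+APAP replicate 2 gave -0.02, -0.06 and -0.02. miR-375-3p stood at 0.10 (SE 0.51). For miR-141-3p the fitted log2 value was 0.01 (SE 0.75) although its mean CPM was higher in dmPGE2+APAP (5.34 ± 5.71 against 3.86 ± 1.14, SD, n = 3), as the fit weights libraries by depth and the mean does not. Without that library the value was -0.86 (SE 0.49). All 8 fitted values lay above 0 (median 0.18, beside 0.00 over all tested miRNAs, of which 50% lay above 0), but those of miR-200a-3p, miR-200b-3p, miR-200c-3p, miR-429-3p and miR-141-3p turned below 0 when that library was left out.

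Livers given both agents were also set against Control, a comparison that shares its samples with the others. edgeR called 0 of 8 members, beside 0.278% of all tested miRNAs, and 1 member, miR-205-5p, had an unadjusted p under 0.05, beside 10.6%. DESeq2 and limma-voom called 0, although DESeq2 gave no p for miR-205-5p. miR-205-5p stood at a log2 value of 3.82 (SE 1.39), with an unadjusted p of 0.0270 and an adjusted p of 0.336 with edgeR. Its 3 dmPGE2+APAP libraries (2.66 to 68.2 CPM) lay above the 3 Control libraries (0.136 to 2.12 CPM), where 6.11% of all tested miRNAs lay higher without overlap. The counting interval of dmPGE2+APAP replicate 3, 1.415 to 4.545 CPM from 13 reads, overlapped that of Control replicate 3, 1.34 to 3.18 CPM. No member lay lower without overlap, beside 8.61%. Without dmPGE2+APAP replicate 2 the log2 value was 1.20 (SE 0.61, edgeR adjusted p 0.834). miR-200c-3p had a log2 value of 1.50 (SE 0.79) with that library and -0.01 (SE 0.28) without it, and miR-141-3p 0.66 (SE 0.61) and -0.19 (SE 0.49).

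The remaining members had log2 values of 0.15 (SE 0.26) for miR-200a-3p, -0.04 (SE 0.28) for miR-200b-3p, 0.12 (SE 0.28) for miR-429-3p, 0.04 (SE 0.46) for miR-200a-5p and 0.18 (SE 0.50) for miR-375-3p against Control. Of the 8 members 7 had a value above 0, beside 46.1% of all tested miRNAs. The median over the 8 members was 0.17, beside -0.03 over all tested miRNAs. Without dmPGE2+APAP replicate 2, 3 of the 8 lay above 0 (miR-200a-3p at 0.01, miR-205-5p and miR-375-3p) and the median was -0.03. Without Control replicate 3, 7 lay above 0 and the median was 0.47.

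**Figure D3:**
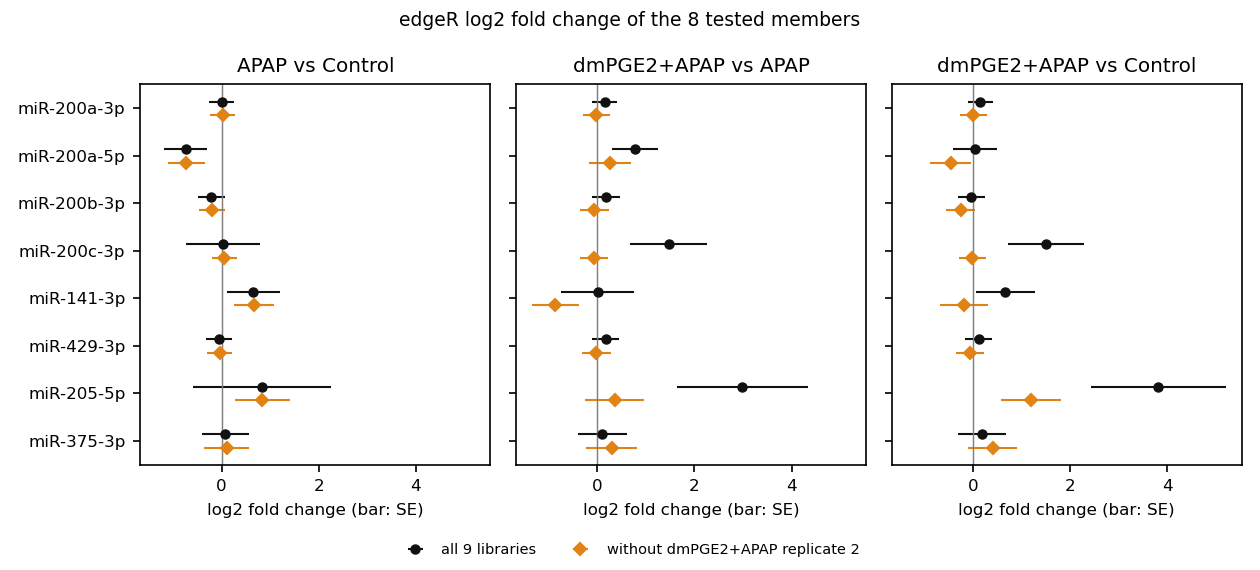
Log2 fold changes of the 8 tested members in the 3 comparisons, from edgeR with all 9 libraries (black circles) and without dmPGE2+APAP replicate 2 (orange diamonds); bars are standard errors. The values of miR-205-5p and miR-200c-3p with dmPGE2 lie far right of 0 with all libraries and move to 0.35 and -0.07 against APAP once that library is left out.

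Across the 9 libraries the 3p arms of the chromosome 4 cluster moved together. Of 28 member pairs, 3 passed after Benjamini-Hochberg adjustment of exact two-sided permutation p-values, and these were the 3 pairs among miR-200a-3p, miR-200b-3p and miR-429-3p. For miR-200a-3p and miR-200b-3p, Pearson's r was 0.945 (exact permutation p = 0.000116, adjusted 0.00258) and Spearman's rho was 0.933 (exact permutation p = 0.00075, adjusted 0.0184). Without the 2 libraries farthest from the median of miR-200a-3p (Control replicate 3 and dmPGE2+APAP replicate 2), r was 0.897. For miR-200a-3p and miR-429-3p, r was 0.903 (exact permutation p = 0.000185, adjusted 0.00258) and rho 0.917 (exact permutation p = 0.00131, adjusted 0.0184), with r at 0.769 without the same libraries. For miR-200b-3p and miR-429-3p, r was 0.885 (exact permutation p = 0.00226, adjusted 0.0211) and rho 0.900 (exact permutation p = 0.00203, adjusted 0.0189), with r at 0.636 without its 2 farthest libraries. How often pairs of any tested miRNAs reach such values was not computed. Outside the set, miR-574-3p and miR-214-3p, picked as most like miR-200a-3p, had r of 0.876 and 0.844 with it. Without the 2 libraries these were 0.718 and 0.617. Close joint movement is thus not particular to this cluster.

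No pair between the clusters passed the adjustment. miR-200b-3p and miR-200c-3p, which share a seed, had r = 0.504 (exact permutation p = 0.199, adjusted 0.214) and rho = 0.050 (exact permutation p = 0.912, adjusted 0.982), and r became -0.114 without the 2 farthest libraries. miR-200a-3p and miR-141-3p, which share the other seed, had r = 0.618 (exact permutation p = 0.0667, adjusted 0.133) and rho = 0.567 (exact permutation p = 0.121, adjusted 0.422). Even inside the chromosome 6 cluster, miR-200c-3p and miR-141-3p had r = 0.796 (exact permutation p = 0.0629, adjusted 0.133) but rho = 0.233 (exact permutation p = 0.552, adjusted 0.672). Their r was -0.193 without the 2 farthest libraries and -0.0698 without dmPGE2+APAP replicate 2 alone, so the r over all libraries rested on that library. These libraries come from 3 treatment groups of unequal depth, and the permutations shuffled all of them without regard to group or depth. The labels name no batch, so whether libraries shared one is not known.

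Ratios between family members within a library do not depend on scaling between libraries, although their counting error is wider in a shallow library. The ratio of miR-200a-3p to miR-200b-3p reads was 1.055, 1.06 and 0.975 for the Control libraries. It was 1.20, 1.10 and 1.25 for the APAP libraries, and 1.20, 1.085 and 1.24 with dmPGE2. By these point values Control lay below both APAP groups without overlap, and the APAP groups overlapped each other. No counting interval was computed for this ratio. The nearest libraries, Control replicate 2 at 1.06 and dmPGE2+APAP replicate 2 at 1.085 (496 and 457 reads), lay close, so the separation was not shown to exceed counting error. Among all pairs of tested miRNAs, the ratio separated APAP from Control without overlap in 16.6% and dmPGE2+APAP from Control in 16.3%, so such a separation is common here, and the ratio was chosen after its values were seen. miR-200c-3p over miR-200b-3p was 0.0464 to 0.111 in the other 8 libraries and 0.379 in dmPGE2+APAP replicate 2.

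Counted by seed, the family's 3p reads were shared almost evenly. AAUACUG arms made up 52.4%, 52.6% and 53.3% of the Control libraries' family reads, 49.4%, 50.8% and 48.4% of those after APAP, and 50.2%, 56.9% and 47.9% with dmPGE2. The highest share again belonged to dmPGE2+APAP replicate 2 (exact 95% binomial interval 54.0% to 59.7%), where miR-200c-3p adds to that seed.

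**Figure D4:**
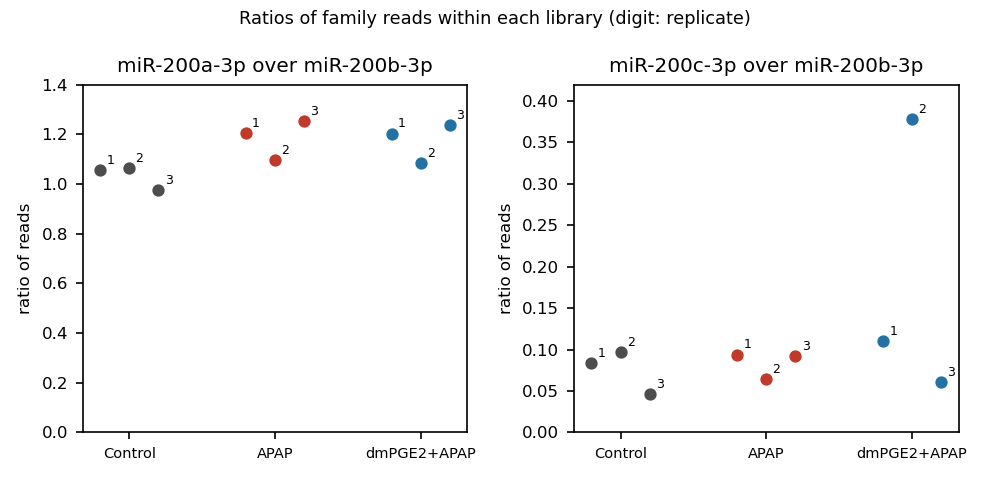
Ratio of miR-200a-3p to miR-200b-3p reads (left) and of miR-200c-3p to miR-200b-3p reads (right) in each library of the 3 groups; digits are replicate numbers. On the left the point values of Control, without counting intervals, sit at 0.975 to 1.06 under both other groups. On the right dmPGE2+APAP replicate 2 alone reaches 0.379.

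Other arms of the same hairpins were almost unread: of 5 listed, 1 (miR-141-5p) was measured, read 3 times in the Control libraries, never in APAP and 2 times with dmPGE2. A list of 10 other epithelial and endocrine miRNAs was tested in full. It held both arms of miR-203 (an epidermal miRNA), the sensory and epithelial miR-183, miR-96 and miR-182 cluster, both arms of miR-31, miR-215-5p of intestine, and miR-7a-5p and miR-184-3p of endocrine cells. edgeR called 0 of the 10 in each comparison, with 1 at an unadjusted p under 0.05 for APAP against Control (miR-184-3p, log2 -0.86, SE 0.38) and 0 in the others. DESeq2 and limma-voom called 0 of the 10 in each. Their median log2 values were -0.28 for APAP against Control, 0.05 for dmPGE2+APAP against APAP and -0.16 for dmPGE2+APAP against Control.

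Within this list miR-203-3p was the most abundant, at 1587 ± 177, 1415 ± 60.5 and 1551 ± 193 CPM in the 3 groups (SD, n = 3). Of 30 miRNAs on this and the marker lists with a mean of at least 10 reads, 7 had a row that nearly repeated another row (within 5% or 2 reads in each library), so their reads cannot be assigned to one of the pair. These were miR-203-5p with miR-203b-3p, miR-122-5p with miR-122b-3p, miR-486a-5p with miR-486b-3p, miR-142a-3p with miR-142b, miR-126a-5p with miR-126b-3p, miR-1a-3p with miR-1b-5p, and miR-9-5p with miR-9b-3p, and the sums of their lists rest in part on them. miR-182-5p had 79.5 CPM in Control replicate 3 against 36.8 to 49.4 CPM in the other 8 libraries, a miRNA picked after its values were seen. The other members of its cluster were not highest there, with miR-183-5p at 30.7 CPM against 37.4 CPM in Control replicate 2 and miR-96-5p at 4.70 CPM against 5.97 CPM in dmPGE2+APAP replicate 2. The sum over the 10 was 2877 CPM in Control replicate 3 and 3220 CPM in Control replicate 2.

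Markers of other cell types of liver and blood were summed per library to show what else differed between the groups. The red-cell list (miR-451a, miR-144-3p and miR-486a-5p) ran from 418 to 516 CPM in Control, 709 to 1350 CPM in APAP and 338 to 366 CPM with dmPGE2. Most of that sum was miR-451a (group means of 409, 800 and 295 CPM). The means of miR-486a-5p (47.9, 108 and 48.15 CPM) and miR-144-3p (7.36, 17.8 and 8.30 CPM) were not lower with dmPGE2 than in Control. With dmPGE2, 1 of the 3, miR-451a, lay below Control without overlap, beside 8.61% of all tested miRNAs. The myeloid list ran from 24.5 to 39.8, 37.7 to 58.7 and 11.1 to 31.7 CPM. The 11.1 CPM belongs to dmPGE2+APAP replicate 2, and the other dmPGE2+APAP libraries had 31.25 and 31.7 CPM. The stromal list of 4 ran from 25810 to 41530, 24410 to 37040 and 25690 to 41500 CPM, the endothelial list of 2 from 7437 to 9115, 7990 to 9434 and 8788 to 10170 CPM, the muscle list of 4 from 482 to 2700, 315 to 903 and 341 to 721 CPM, and the endocrine list of 3, which holds miR-375-3p, from 890 to 1527, 529.5 to 1058 and 671 to 956 CPM. Nearly all of the endocrine sum was miR-7a-5p (group means of 1131, 860 and 764 CPM), beside 1.97, 2.15 and 1.92 CPM for miR-375-3p. Likewise, miR-143-3p made up most of the stromal sum and miR-1a-3p most of the muscle sum. The part of red or myeloid cells in the members' levels was not tested.

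For the most abundant member, miR-200a-3p, the 5 tested miRNAs outside the set whose log2 CPM was most like it over the 9 libraries were miR-574-3p, miR-214-3p, miR-203-3p, miR-574-5p and miR-34c-5p. Likeness was ranked by Pearson's r, which picked them, so no p is given. Their r ran from 0.771 to 0.876, and from 0.424 to 0.818 without dmPGE2+APAP replicate 2 and Control replicate 3. For miR-375-3p the 5 were miR-434-3p, miR-134-5p, miR-421-3p, miR-664-5p and let-7i-3p, with r from 0.790 to 0.863, and from 0.363 to 0.815 without dmPGE2+APAP replicate 2 and APAP replicate 3. All of the latter had a mean under 5 CPM, so this list rests on few reads.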

How the data were processed

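The authors deposited, per the file headers, read counts and TPM values per mature miRNA for 9 libraries. Bowtie and mm10 are named in the submitters' processing notes, and the sources used here give no version, counting tool, annotation or strand setting. TPM as deposited are counts scaled to the library total, without a length term, and served for alternatives only. APAP and dmPGE2+APAP columns match the sample titles, the columns left over were taken as Control and keep the column's number. The 3 TPM columns of Control were not used, and the same scaling of their counts took their place.

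Counts were tested with edgeR 4.0.16 in R 4.3.3 (TMM scaling, filterByExpr with minimum count 10 and minimum total 15, robust quasi-likelihood test, all 9 libraries in 1 fit, Benjamini-Hochberg over 360 miRNAs, threshold 0.05). SEs derive from the F statistic, and intervals use 6 residual degrees of freedom. Alternatives used DESeq2 1.42.0, limma 3.58.1, other scaling, filters and subsets. Counting intervals are exact Poisson at 95%. On 5 simulated sets for APAP against Control with 200 of 360 miRNAs changed, edgeR found 96.6% of those changed 4-fold and 67.3% of those changed 2-fold. Of its calls 2.92% were false. These shares pool miRNAs of all levels and hold with many miRNAs changed, whereas 3 of 360 were called in the data. They therefore do not say how often a change in a member, least of all a scarce one, would be found here.

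Members and lists were chosen with earlier results of these data known. Named miRNAs are all members, the fixed lists, and the 5 miRNAs most like miR-200a-3p and miR-375-3p by Pearson's r of log2 CPM (prior count 2). Other names were chosen after their values were seen. Sequences came from RefSeq for 8 of 9 members.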

Additional observations from a re-analysis of the deposited data

How the results depend on the processing

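Over 21 alternatives the number of members called stayed at 0 in each of the 3 comparisons. They were RLE size factors, library totals, no filter, a mean of at least 10 CPM, DESeq2, limma-voom, limma on log2(TPM + 1) and log2(TPM + 10), only the 2 groups compared, the replicate block, thinning to equal depth, each of 9 libraries left out, and Control replicate 3 with dmPGE2+APAP replicate 2 left out, the last chosen after seeing the data. The lowest adjusted p for a member was 0.214 (miR-205-5p, dmPGE2+APAP against Control, without dmPGE2+APAP replicate 1). Where a filter or thinning kept 5 members, 3 had no value. DESeq2 gave no p for miR-205-5p, and no adjusted p for miR-375-3p in APAP against Control. Log2 values of miR-205-5p ran from 0.18 to 1.35 for APAP against Control, 0.35 to 3.60 for dmPGE2+APAP against APAP and 1.13 to 4.45 against Control, and those of miR-200c-3p in the last 2 comparisons from -0.07 to 1.95 and -0.02 to 2.01. Calls over all miRNAs ranged from 0 to 13, 0 to 9 and 0 to 2, against 3, 1 and 1, with the 13 from DESeq2.

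Same-numbered libraries did not deviate together (correlations of -0.25 to 0.17 over 9 pairs, and -0.28 to 0.15 for other numbers). With so few libraries in each group mean, these values cannot exclude a pairing. No label says that a number marks a shared animal or day. With the replicate block, 0 members were called in any comparison, and all calls numbered 0, 2 and 1.

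Depth limits the scarce members: in dmPGE2+APAP replicate 2, miR-375-3p and miR-200b-5p rest on 1 read each.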
